A study of Mus musculus with 19 samples.

Results

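The passage from the mature oocyte to the 2cell embryo was followed in mice labelled heterozygous (CPEB3+/-) for *Cpeb3*, the gene of an RNA-binding protein of the oocyte. It was read from 10 of the 19 RNA-seq libraries of the study, 5 of MII oocytes and 5 of 2cell embryos, while the other 9 libraries were of CPEB3-/- cells. A gene entered the comparison when at least 5 of the 10 libraries listed it at 0.1 FPKM or more (fragments scaled to exon length and to the depth of the library). This held for 12684 of the 25891 genes in the table. Both groups came from BL6 females aged 6 to 10 weeks, superovulated with 5 IU of PMSG and, 48 h later, 5 IU of hCG. MII oocytes are ovulated eggs that wait for fertilization in metaphase of the second meiotic division. Zygotes came from mated females 17 h after hCG and were kept in M16 medium under paraffin oil, and 2cell embryos were collected at 37 h, without word on whether the sequenced ones were the cultured ones. Each library was made from 5 pooled cells with a SMART-seq v4 kit, which primes on poly(A) tails. In the CPEB3-/- females a floxed *Cpeb3* is deleted by Cre recombinase under the ZP3 promoter, which is active in growing oocytes, so the genotype named is that of the mother's germ line. The study counts a single-floxed genotype with the same Cre, CPEB3 LoxP/-; ZP3 Cre+/-, as wild type along with CPEB3+/+, and mated females to wild-type males in its breeding tests. Whether the females labelled heterozygous were of that genotype, and the genotype of the embryos themselves, were not given in the sources used here. Nor was it given whether the libraries of a group came from different females, so that p-values measure the spread between libraries, which may be technical. Stage and mating, and culture where it was used, changed together and cannot be told apart. The methods speak of quadruplicates and of another sequencer than the labels. The libraries are used here as labelled, 5 per stage.

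A mouse oocyte is filled with RNA while it grows and is nearly silent in transcription by the time it reaches MII, so that the first steps of development run on stored maternal RNA. Stored RNAs are kept with short poly(A) tails, are lengthened when they are to be translated, and are cleared after they have been used. CPEB proteins bind U-rich elements in the 3′UTR and take part in both storage and tail lengthening. In the mouse the embryonic genome is switched on broadly at the 2cell stage, where genes such as *Zscan4* and *Zfp352* are read for a short time.

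*Cpeb3* itself, on chromosome 19, was listed at 0.070, 0.0987, 0.045, 0.0627 and 0.101 FPKM in MII libraries A to E and at 0.0204, 0.0236, 0.0265, 0.0566 and 0.0246 FPKM in 2cell libraries A to E. It lay under the filter and was not tested. The value covers the whole gene and rests on few fragments. The labels were checked against markers. The 10 oocyte markers (the zona pellucida genes, *Gdf9*, *Mos*, *H1foo* and others) summed to 1566, 1916, 1600.2, 1862 and 1835 FPKM per MII library and to 244, 207, 174, 183 and 179 FPKM per 2cell library, and 8 of the 10 were called higher in MII, as were 28.0% of all tested genes. The 2cell embryo markers did the opposite, with all 8 tested genes of 9 called higher in the embryo (41.0% of all tested genes were) and sums of 39.3, 45, 37.9, 39.2 and 41.3 against 625, 529, 469, 579.7 and 447 FPKM. Y-linked genes, which an oocyte does not carry, summed to 0.00145 to 0.00617 FPKM in MII and 0.375 to 0.834 FPKM in 2cell libraries. In each of these sums the groups did not overlap (two-sided exact permutation test over 252 divisions of the libraries, p = 0.00794, the smallest p these libraries allow).

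Depth, estimated from the steps between low FPKM values, was 19.5 to 23.6 M fragments per MII library (median 20.5) and 17.2 to 20.2 M per 2cell library (median 19.2; exact permutation test, p = 0.0317). The estimate is rough: with it, 44.7 to 47.1% of low values came out as whole fragments to within 0.05, against 10% for values at random. A gene of median exon length (2812 bases) with 10 fragments has 0.178 FPKM. The libraries of a stage were alike across genes, with correlations of log2 values of 0.970 to 0.979 among MII and 0.943 to 0.968 among 2cell libraries. The scale matters more here. The FPKM of a library summed to 83573 to 86770 in MII oocytes and to 135309 to 159320 in 2cell embryos, and no spiked-in RNA sets an absolute level. The libraries were therefore scaled by trimmed means of log ratios, which take the bulk of genes as the reference. Scaling each library to its sum of FPKM instead lowered the log2 difference of every gene by a median of 0.63. Calls that depend on this choice are named for many lists and genes, though not for all. Less RNA per cell, a smaller share of the RNA and a shorter poly(A) tail cannot be told apart in these values.

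Most of the tested genes changed between the stages. Of the tested genes, 8754 (69.0%) were called, with an adjusted p under 0.05 (limma) and more than 1.5-fold change. In the 2cell embryo 5199 genes (41.0%) were higher, and in the MII oocyte 3555 (28.0%). For 8171 genes (64.4%) no library of one stage overlapped with the other stage, and this was so for 88.1% of the called genes. Rises made up 59.4% of the calls, but 41.3% with libraries scaled to the sum of FPKM, where 3923 genes were higher and 5579 lower in the embryo. All of these 3923 rises and all 3555 falls of the first scaling were called in the same direction in both, and 1276 rises were lost. The median log2 difference (2cell minus MII, on log2(FPKM + 0.1)) over all tested genes was 0.25, and -0.41 with the other scaling.

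Rises covered a wider range of size than falls. More than 4-fold change was found for 2713 rises and 774 falls, more than 16-fold for 803 and 36, and more than 64-fold for 259 rises and a single fall, that of *Mos*. The risen genes had a median of 0.110 FPKM in MII and 1.24 FPKM in 2cell, whereas the fallen genes went from a median of 1.32 to 0.388 FPKM. Of the risen genes, 1692 had 3 fragments or fewer in every MII library, 838 of them protein coding, and 619 of the 1692 reached a mean of 1 FPKM in the embryo. Only 193 of the fallen genes went the other way, to 3 fragments or fewer in every 2cell library. A gene can pass the filter on the 5 libraries of either stage alone. If near 0 in the other stage, it could only be called higher in the stage that let it in, so these counts are descriptions. The number of genes listed at 0.1 FPKM or more was 9916 to 10641 per MII library and 13054 to 13603 per 2cell library.

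**Figure D1:**
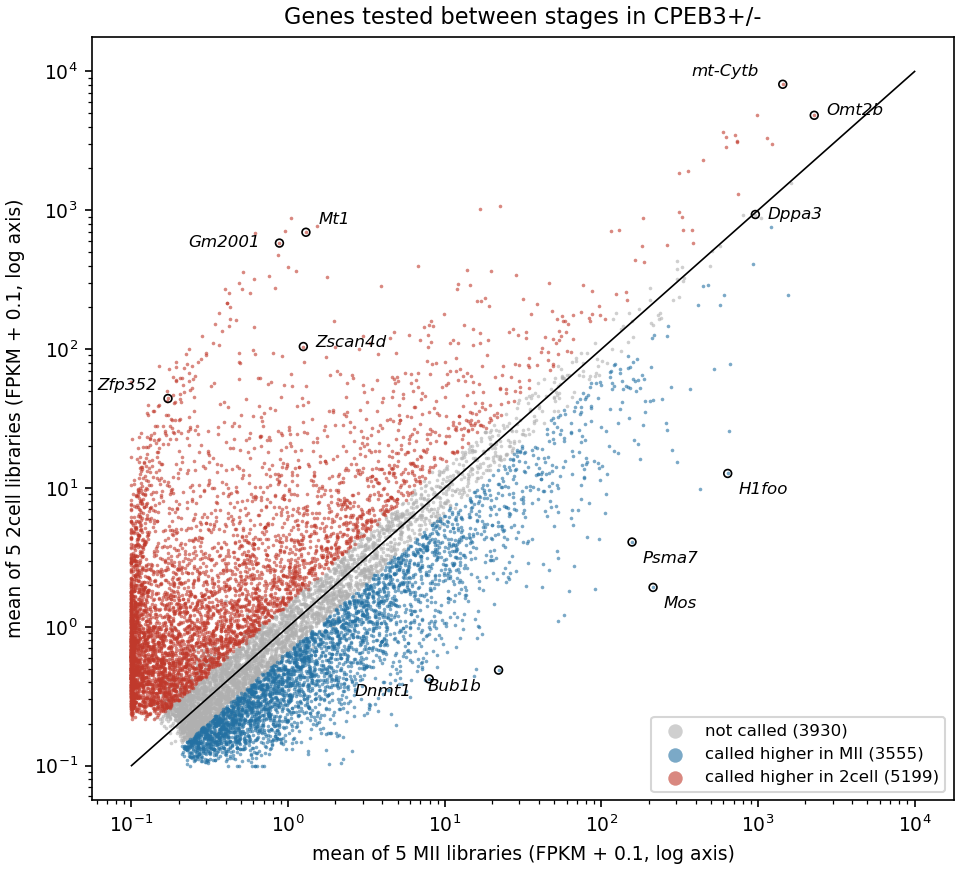
Mean FPKM of each of the 12684 tested genes in 5 MII libraries (horizontal axis) and 5 2cell libraries (vertical axis), both as deposited, plus 0.1 and on log axes; the line marks equal values, and calls were made on scaled values. Genes called higher in the embryo (5199) include *Mt1* and *Gm2001* far above the line, while genes called higher in MII (3555) include *Mos*, *H1foo*, *Psma7* and *Bub1b* far below it.

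In summed FPKM the called genes, whose classes were set on these same libraries, changed places. Genes called higher in MII held 44.8 to 45.9% of the summed FPKM of an MII library and 7.40 to 10.1% of that of a 2cell library. Genes called higher in 2cell went from 27.1 to 28.1% up to 72.5 to 78.1%. The 13 mitochondrially encoded mRNAs alone rose from 7.32 ± 0.597 to 21.7 ± 2.58% of the sum (exact permutation test, p = 0.00794). The 100 highest genes of a library held 48.4 to 52.1% in MII and 56.2 to 62.2% in 2cell.

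**Figure D2:**
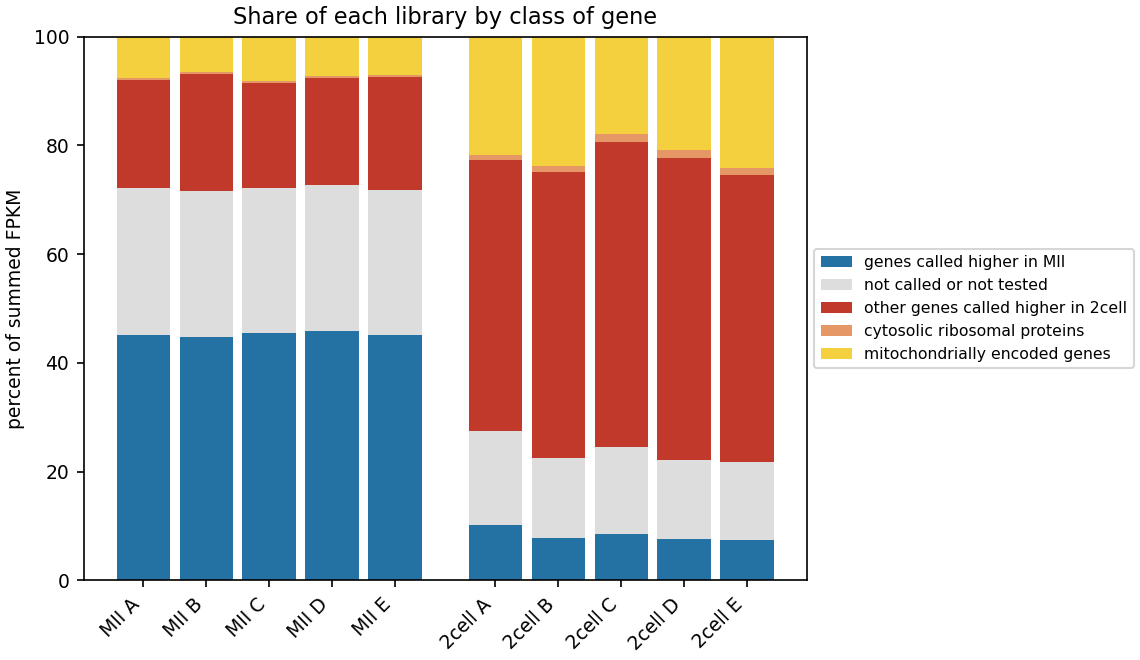
Percent of the summed FPKM of each of the 10 libraries (bars, MII A to E and 2cell A to E) by class of gene; the called classes were defined on these same libraries. The share of genes called higher in MII drops from 44.8 to 45.9% to 7.40 to 10.1%, and the mitochondrially encoded genes take 17.8 to 24.2% of each 2cell library.

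Maternal RNAs that hold the egg in meiosis were among the largest falls. *Mos* (chr4:3870657-3872105, minus strand), the kinase that keeps the egg in metaphase arrest through MAP kinase, was listed at 157, 266, 170.2, 241 and 234 FPKM in MII libraries A to E and at 1.19, 1.04, 1.88, 3.25 and 1.74 FPKM in 2cell libraries A to E. The stages lay far apart and did not overlap, with a log2 difference of -6.85 (SE 0.26, adjusted p = 1.05e-09). *Bub1b*, a spindle checkpoint protein, went from 22 ± 1.95 to 0.387 ± 0.0574 FPKM (mean ± SD, n = 5 per stage), a log2 difference of -5.48. *Ccnb1*, the cyclin of M-phase kinase, fell less, from 199, 125, 186, 161 and 127 FPKM to 71.8, 58, 51.4, 54.8 and 66.9 FPKM, a log2 difference of -1.35 (adjusted p = 3.53e-05). Its stages did not overlap either, though 2cell library A reached 71.8 FPKM. Of the 54 genes listed for meiotic arrest and M-phase control, 49 were tested, and 21 were called higher in MII and 5 in 2cell, against 28.0 and 41.0% of all tested genes (median log2 difference -0.31, against 0.25 over all), or 33 and 4 with the sum of FPKM. The falls included *Pttg1* (279 to 53.4 FPKM), the securin that guards sister chromatids, *Plk1* (13.1 to 2.57), *Cdc25a* (3.98 to 0.717) and *Aurkc* (11.8 to 2.16), the aurora kinase of germ cells. Of the 5 rises, *Cdc25c*, the phosphatase that activates CDK1, went from 0.0835 ± 0.0214 to 1.7 ± 0.19 FPKM, *Cdk1* from 2.74 to 13.4 and its inhibitor *Wee1* from 0.131 to 1.03 FPKM, whereas *Wee2*, the oocyte form of WEE1, stood at 19.1 and 23.1 FPKM and was not called.

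In the list of zona, sperm binding and secreted oocyte factors, of 19 tested genes of the 20 listed, 10 were called higher in MII and 1 in 2cell, against 28.0 and 41.0% of all tested genes (median -0.67), and 18 and 1 when scaled to the sum of FPKM (median -1.48). *Gdf9*, a growth factor by which the oocyte signals to its follicle cells, was listed at 253, 363, 252, 324 and 339 FPKM in MII and 16.3, 15.7, 17.4, 13.9 and 13.3 FPKM in 2cell libraries, a log2 difference of -4.27 (adjusted p = 5.4e-11). Its sister factor *Bmp15* fell from 187 to 60.9 FPKM and *Plat*, a secreted protease, from 17.1 to 0.781 FPKM. *Zp2* and *Zp3*, structural proteins of the zona pellucida, were low at both stages and not called, at 2.05 and 1.81 FPKM and at 6.8 and 4.93 FPKM. Both were called lower in 2cell when scaled to the sum of FPKM. *Cd9*, the egg membrane protein needed for sperm fusion, was the member that rose, from 0.371 ± 0.0129 to 2.96 ± 0.768 FPKM.

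Maternal-effect genes shared the fall. Of the 21 tested genes of the subcortical maternal complex and the oocyte Nlrp and Oog families (22 listed), 15 were called, each of them higher in MII (28.0% of all tested genes), with a median log2 difference of -1.67, and 20 with the sum of FPKM. *Ooep* fell from 259.6 to 29.5 FPKM, *Padi6* from 28.5 to 2.41 FPKM, *Tle6* from 5.06 to 0.856 FPKM and *Nlrp5* from 2.66 to 0.739 FPKM, all encoding parts of the complex that cleavage needs. *Oog4*, a leucine-rich repeat gene of the oocyte, had the largest fall of the list, from 52.7 ± 9.05 to 3.01 ± 0.799 FPKM. Its relative *Oog3* was among the most abundant RNAs that were not called, at 965, 622, 981, 775 and 663 FPKM in MII and 1151, 996, 710.2, 788 and 979 FPKM in 2cell libraries, with overlapping stages and a log2 difference of 0.24 that turned to -0.58 when scaled to the sum of FPKM. The oocyte Fbxw genes, an array of F-box genes, had 11 of 12 members called higher in MII, against 28.0% of all tested genes (median -2.59), led by *Fbxw28* from 81.2 ± 10.6 to 4.36 ± 0.675 FPKM. Of 11 tested oocyte transcription factors (14 listed), 6 were called higher in MII and 3 in 2cell, against 28.0 and 41.0% of all tested genes (median -0.69), and 7 and 2 with the sum of FPKM. *Nobox*, a homeobox factor of the growing oocyte, fell from 24.5 ± 3.81 to 2.0 ± 1.16 FPKM, and *Zfx*, an X-linked zinc finger gene, rose at least 65.9-fold to 1.22 ± 0.297 FPKM, measured against 3 fragments per MII library. Near-identical copies in the Oog, Nlrp4 and Fbxw families can share reads, so values of single copies are uncertain.

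**Figure D3:**
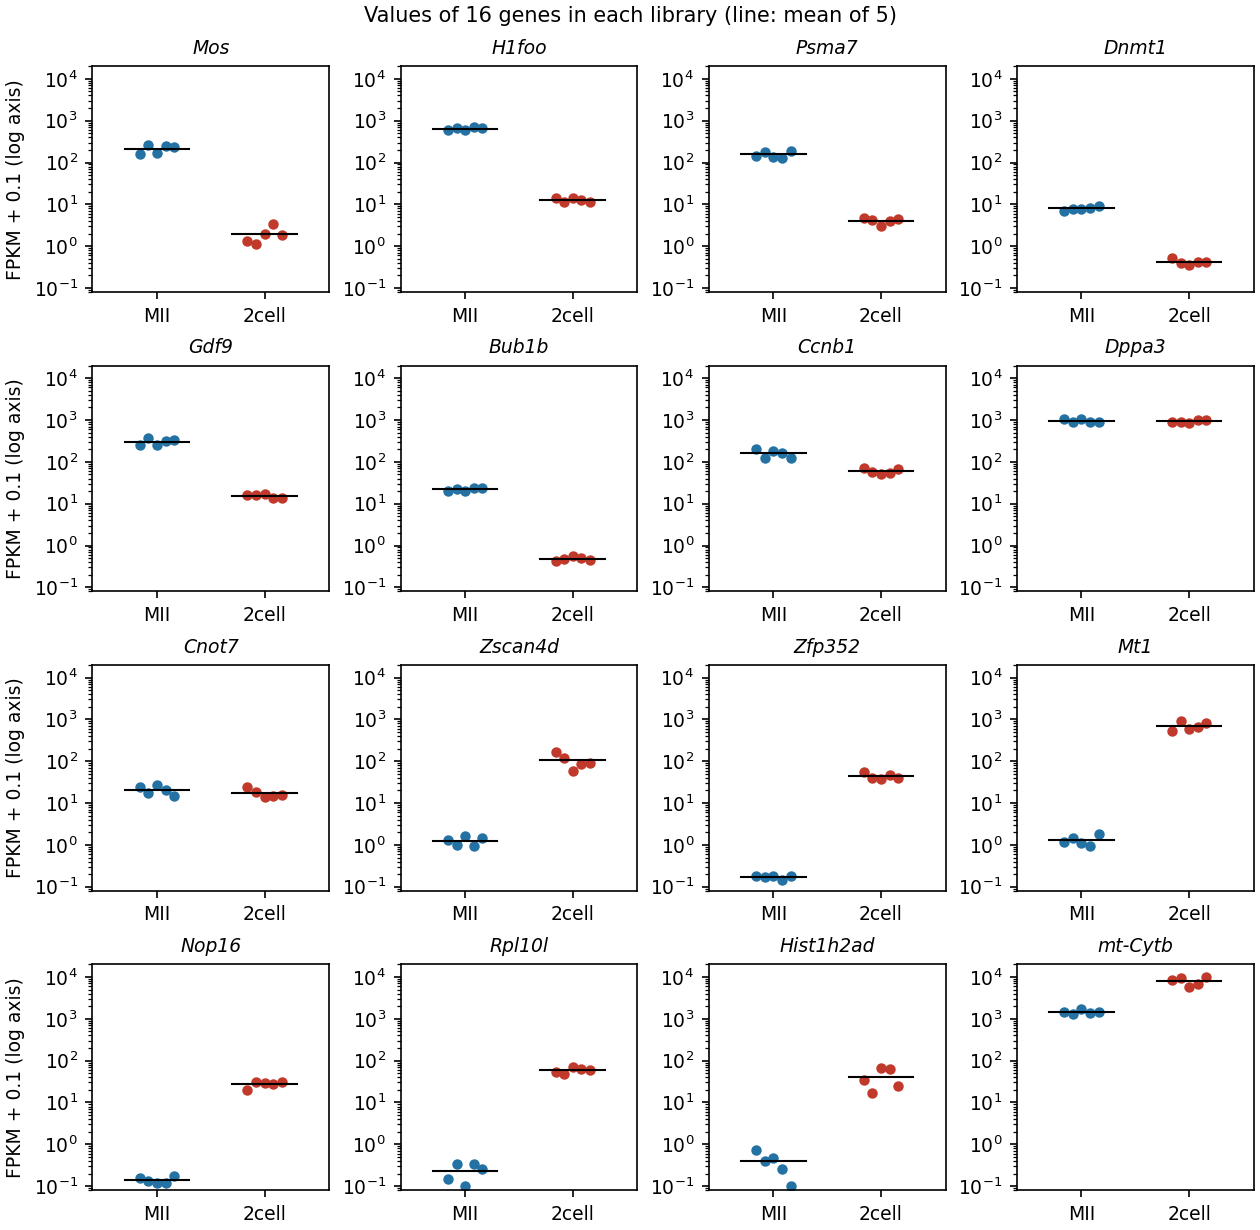
FPKM plus 0.1 of 16 genes in each of the 5 MII and 5 2cell libraries (points, log axis; the line is the mean of 5). *Mos*, *H1foo*, *Psma7*, *Dnmt1*, *Gdf9*, *Bub1b* and *Ccnb1* are lower in every 2cell library, *Dppa3* and *Cnot7* overlap between the stages, and the other 7 genes are higher in every 2cell library.

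Of the 29 tested genes of RNA storage and cytoplasmic polyadenylation (35 listed), 15 were called higher in MII and 6 in 2cell, against 28.0 and 41.0% of all tested genes (median -0.66), and 20 and 4 with the sum of FPKM. *Pabpn1l*, the poly(A)-binding protein of oocytes and early embryos also called ePAB2, had the largest fall, from 13.9, 16.9, 13.7, 13.9 and 20.5 FPKM to 0.281, 0.25, 0.599, 0.153 and 0.681 FPKM (log2 difference -5.10, adjusted p = 1.96e-08). *Zar1*, which stores maternal RNA, fell from 96.2 to 4.18 FPKM, *Dazl*, an activator of translation in the oocyte, from 75.2 to 14.5 FPKM, and *Cpeb1*, the CPEB protein of the immature oocyte, from 0.57 to 0.0745 FPKM. The somatic poly(A)-binding protein gene *Pabpc1* rose from 0.265 ± 0.0493 to 4.99 ± 1.58 FPKM, while its oocyte relative *Pabpc1l* fell from 0.403 to 0.116 FPKM. Among the CPEB genes, *Cpeb2* rose from 0.0137 to 0.29 FPKM, and *Cpeb4* from 0.333 to 0.85 FPKM, a call lost when scaled to the sum of FPKM.

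Of 35 tested genes of deadenylation, uridylation and decay (40 listed), 13 were called higher in MII and 9 in 2cell (28.0 and 41.0% of all tested genes), with a median of -0.10, and 20 and 6 (median -0.83) when scaled to the sum of FPKM. *Cnot7*, a catalytic deadenylase of the CCR4-NOT complex that the study follows up, was listed at 24.5, 17.6, 26.9, 20.7 and 14.4 FPKM in MII and 24.7, 18.6, 13.6, 14.3 and 15.4 FPKM in 2cell libraries. The ranges overlapped and it was not called (log2 difference -0.24, adjusted p = 0.365), although it was called lower in 2cell when scaled to the sum of FPKM. Other subunits fell, among them *Cnot3* (7.78 ± 0.785 to 0.895 ± 0.173 FPKM), *Cnot9* (7.1 to 1.98) and the deadenylase *Cnot6l* (4.93 to 1.84). *Btg4*, the adaptor that brings CCR4-NOT to maternal RNA, fell from 73.5 to 34.1 FPKM. The adaptors *Zfp36l2* (0.374 ± 0.0997 to 7.8 ± 1.87 FPKM) and *Tob1* (0.547 to 6.3) rose. In the small RNA pathway 4 of 15 tested genes were called in each direction (25 listed), where 28.0% of all tested genes were higher in MII and 41.0% in 2cell, and 8 called higher in MII and 2 in 2cell when scaled to the sum of FPKM. *Dicer1*, which cuts endogenous small RNAs in the oocyte, fell from 8.39 to 1.09 FPKM and *Asz1*, of the piRNA pathway, from 1.85 ± 0.153 to 0.132 ± 0.0193 FPKM, while *Mael*, of the same pathway, rose from 0.292 ± 0.0672 to 0.953 ± 0.185 FPKM.

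The largest falls over all protein-coding genes, besides *Mos* and *Bub1b*, were of several kinds. *H1foo* (chr6:115944938-115950236, plus strand), the linker histone of the oocyte, was listed at 589, 668, 594, 690.1 and 663 FPKM in MII libraries A to E and at 14.1, 11, 14.1, 12.6 and 11.2 FPKM in 2cell libraries, a log2 difference of -5.63 (SE 0.10, adjusted p = 7.59e-12). *Rgs2*, a regulator of G protein signals, fell from 429 ± 33.8 to 9.79 ± 1.94 FPKM, and *Obox2*, an oocyte homeobox gene, from 654 ± 192 to 25.8 ± 6.57 FPKM. *2310033P09Rik* (91.2 ± 16 to 1.78 ± 0.569 FPKM), *Gm813* (57.5 ± 7.49 to 1.11 ± 0.281) and *Tmem50a* (15.2 ± 1.84 to 0.342 ± 0.047) complete the 10 with *Psma7* and *Pabpn1l*. They were chosen among called genes whose stages did not overlap. By lost FPKM the order was different, with *Bcl2l10*, an anti-apoptotic gene of the oocyte, first. It was listed at 1569, 1519, 1585, 1505 and 1543 FPKM in MII and at 424, 225, 236, 170.3 and 172 FPKM in 2cell libraries, 2cell library A standing above the other 4. *Sfr1*, a recombination factor, fell from 527 ± 29.5 to 71.4 ± 11.4 FPKM, and *Tcl1*, an activator of AKT, from 1209 ± 115 to 762 ± 195 FPKM. The log2 difference of *Tcl1* was -0.67, and without 2cell library D it was -0.56 and no longer past the fold threshold.

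The most abundant protein-coding RNAs that were not called included *Dppa3* and *Sap18b*. *Dppa3*, which protects the maternal genome from demethylation, was listed at 1078, 889, 1054, 914 and 876 FPKM in MII and at 902, 876, 869, 1003 and 1013 FPKM in 2cell libraries. The ranges overlapped, and the log2 difference was -0.01 (adjusted p = 0.928). *Sap18b* stood at 1046 ± 18.2 and 887 ± 90.2 FPKM and was not called either (adjusted p = 0.0642). Both were called lower in 2cell when scaled to the sum of FPKM. *Obox5* (337 ± 84.8 and 325 ± 96 FPKM) and *Zfp770* (6.14 ± 1.41 and 6.62 ± 1.03 FPKM), a zinc finger gene, were not called, and were called lower in 2cell with that scaling. *Omt2b*, an abundant RNA of the oocyte, was listed at 2287 ± 281 FPKM in MII and 4834 ± 469.9 FPKM in 2cell, a rise (log2 difference 1.11) that was lost when scaled to the sum of FPKM.

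The 3′UTR, where CPEB proteins bind, was read for the 8900 tested protein-coding genes with an annotated one. The search used the longest 3′UTR of each gene in GENCODE vM21 (GRCm38) and the letters TTTTAT and TTTTAAT, the DNA form of cytoplasmic polyadenylation elements, on the strand of the transcript. In the last 100 bases of the 8603 long enough, where such an element can act with the polyadenylation signal, at least one of the motifs was found in 24.9% of fallen genes, 15.2% of risen genes and 19.7% both of genes that were not called and of all tested genes. Over whole 3′UTRs, TTTTAT was found in 62.8% of fallen genes and 62.1% of genes not called, and in 47.4% of risen genes. The median 3′UTR was 938 bases in risen, 1227 in fallen and 1378 in genes not called, and 967 in genes that fell over 4-fold. Per kilobase TTTTAT occurred 1.03 times both in fallen genes and in genes not called, and 0.943 times in risen genes. The AU-rich element ATTTA was found in 74.7% of fallen, 73.6% of not called and 62.5% of risen genes, and the Pumilio motif TGTANATA in 26.3, 29.03 and 20.5%. These shares are descriptions without a test.

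Windows of 30 bases around such a motif in the last 100 bases of the 3′UTR are shown for fallen genes, to let the position of the motif be seen beside their values, 5′ to 3′ on the transcript's strand, from the GRCm38 genome with GENCODE vM21, the motif in capitals. They lie at chr6:115950161-115950190 (plus strand) for *H1foo*, chr2:118641557-118641586 (plus strand) for *Bub1b*, chr7:15398482-15398511 (plus strand) for *Obox2*, chr9:75351583-75351612 (plus strand) for *Bcl2l10*, chr11:53437858-53437887 (plus strand) for *Gdf9*, chr12:105216793-105216822 (minus strand) for *Tcl1* and chr9:20907235-20907264 (minus strand) for *Dnmt1*, which is described below. A match is a description and not a binding site.
H1foo: tctgaagcTTTTATtgtctaataagctgtc
Bub1b: actgtgtaTTTTATaataaaatagtttttg
Obox2: tcttaattTTTTATtgttagagtatatgtt
Bcl2l10: taatacatTTTTAATaacttcaaattctta
Gdf9: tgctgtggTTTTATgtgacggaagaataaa
Tcl1: gtgtgggaTTTTATgtggttctattttaga
Dnmt1: tgatgtagTTTTATatgttgtaatatttct

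The same letters stood near the 3′ end of genes that rose, shown for comparison, at chr7:14331448-14331477 (minus strand) for *Obox8*, chr7:38097990-38098019 (minus strand) for *Ccne1*, chr16:20722235-20722264 (plus strand) for *Polr2h* and chr13:54584187-54584216 (minus strand) for *Nop16*. Of the 10 largest falls, 3 (*H1foo*, *Bub1b* and *Obox2*) held a motif in the last 100 bases and *Rgs2* held one farther from the end. The other 6, *Mos* (126 bases of 3′UTR), *2310033P09Rik*, *Gm813*, *Psma7*, *Pabpn1l* and *Tmem50a*, held neither motif, and *Ccnb1* held 3 TTTTAT and 1 TTTTAAT, all more than 100 bases from its end. Only TTTTAT and TTTTAAT were searched, in the annotated 3′UTR, so the lack of a match does not mean that an RNA lacks such elements.
Obox8: ttggtaaaTTTTATtaattaaagacatgtg
Ccne1: ctatcaatTTTTAATaaagataatactatc
Polr2h: atgattttTTTTATtaaagttttctttttc
Nop16: aaagcataTTTTATacattgcctatgacat

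Of 30 tested 2cell-specific genes (31 listed), 29 were called higher in the embryo (41.0% of all tested genes), and the median log2 difference was 6.23 (5.63 when scaled to the sum of FPKM). The gene that was not called was *Sp110*, an interferon-induced nuclear body gene, at 11 and 8.81 FPKM, which was called lower with that scaling. *Zscan4d* (chr7:11161374-11166159, minus strand), a zinc finger gene of early embryos, was listed at 1.19, 0.883, 1.51, 0.825 and 1.35 FPKM in MII libraries A to E and at 169, 117, 58.8, 85.2 and 91.8 FPKM in 2cell libraries A to E. The stages were far apart (log2 difference 6.35, adjusted p = 2.67e-09), and 2cell library A was the highest. The other copies moved alike. *Zscan4a* rose from 0.084 ± 0.0323 to 46.8 ± 21.3 FPKM, *Zscan4c* from 0.544 ± 0.129 to 61.8 ± 32.5 FPKM, *Zscan4e* from 0.0315 ± 0.052 to 12.8 ± 9.12 FPKM and *Zscan4f* from 0.231 ± 0.147 to 111 ± 72.2 FPKM. *Zscan4b* was at 3 fragments or fewer in every MII library and rose at least 108-fold, to 8.62 ± 7.69 FPKM, or at least 65.2-fold, to 5.2 FPKM, without 2cell library A. The MII mean of *Zscan4e* was 0.00866 FPKM without library B. 2cell library A was the highest of the 5 for each copy, at 234 FPKM for *Zscan4f*. The copies are near-identical in sequence, so that reads may be split between them, and *Zscan4a* is annotated as a pseudogene.

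*Zfp352* (chr4:90218820-90225702, plus strand), a zinc finger gene derived from a transposed copy, was listed at 0.0777, 0.075, 0.0798, 0.0424 and 0.0802 FPKM in MII and 54.7, 40.7, 38.6, 47.2 and 38.7 FPKM in 2cell libraries, a log2 difference of 8.02 (SE 0.13, adjusted p = 7.59e-12). The Tdpoz and Usp17l families, encoding TRAF-domain and deubiquitinase-like proteins, rose as well, *Tdpoz5* from 0.135 to 50.7 FPKM and *Usp17lb* from 0.142 to 52.5 FPKM. *Duxf3*, the gene of the pioneer factor DUX, was under the filter, at 0.0177 FPKM in MII library B, at or near 0 in the other 4, and at 0.263 FPKM on average in 2cell. *Tcstv1* and *Tcstv3*, found in 2cell embryos, were already present in MII at 32.7 and 5.85 FPKM and rose to 121 and 127 FPKM.

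Among the 10 largest rises of protein-coding genes, 7 were genes without a given name in a cluster on chromosome 12. *Gm2001* (chr12:87841837-87842339, minus strand) was listed at 0.681, 1.91, 0.42, 0.435 and 0.457 FPKM in MII and 447, 562, 564, 701 and 628 FPKM in 2cell libraries, *Gm16381* at 0.416 ± 0.212 and 359 ± 83.1 FPKM and *Gm8332* at 0.501 ± 0.558 and 322 ± 61.4 FPKM. *Gm4027*, *Gm5662*, *Gm2016* and *Gm6803* reached 216, 272, 151 and 125 FPKM from 0.307, 0.409, 0.241 and 0.182 FPKM. These genes have near-identical neighbours, so the value of any single copy is uncertain. In MII, library B decided the mean of *Gm2001* (0.498 FPKM without it) and library E those of *Gm8332* (0.263) and *Gm6803* (0.105). *Rfpl4b*, a ring finger gene of oocytes and early embryos, rose from 0.322 ± 0.156 to 253 ± 26.5 FPKM and *Gm10800* from 0.26 ± 0.0503 to 181 ± 64.3 FPKM. *Mt1*, a metallothionein that binds zinc, was listed at 1.06, 1.37, 1.01, 0.855 and 1.7 FPKM in MII and 538, 895, 594, 641 and 805 FPKM in 2cell libraries, a log2 difference of 9.10 (adjusted p = 1.72e-11) with no overlap. The 3 largest rises of noncoding genes were of similar size. *Gm12614* went from 0.513 ± 0.397 to 692 ± 119 FPKM, a log2 difference of 10.57 that was 9.97 without MII library C, *Gm12627* from 0.947 ± 0.366 to 876 ± 142 FPKM and *Gm28645* from 0.294 ± 0.254 to 271 ± 46.5 FPKM. The largest noncoding falls were those of *Gm1070* (52.8 ± 3.44 to 1.01 ± 0.182 FPKM), *Gm1866* (61.8 ± 6.13 to 1.7 ± 0.557) and *Gm14388* (67.1 ± 8.26 to 2.65 ± 0.391).

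Of 23 tested known and proposed activators of the embryonic genome (26 listed), 10 were called higher in 2cell and 6 in MII, shares near the 41.0 and 28.0% of all tested genes, and when scaled to the sum of FPKM 7 and 11 (medians 0.16 and -0.45). Of the Obox homeobox genes, *Obox8* was listed at 0.161, 0.135, 0, 0.0687 and 0.217 FPKM in MII and 52, 67.8, 66.1, 96.2 and 85.7 FPKM in 2cell libraries (log2 difference 8.52), and *Obox6* rose from 0.0395 to 35.8 FPKM. *Obox1* and *Obox7*, with *Obox2*, fell, from 20.2 to 2.91 FPKM and from 51.6 to 7.34 FPKM. *Gabpa*, an ETS factor, rose from 0.0124 to 9.29 FPKM and *Dppa4* from 0.175 to 8.58 FPKM, whereas its partner *Dppa2* stood at 2.01 and 2.0 FPKM and was not called. *Nfya*, a subunit of the CCAAT-binding factor, fell from 1.99 to 0.314 FPKM.

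Of 16 tested pluripotency and lineage factors (24 listed), 11 were called higher in 2cell and 4 in MII, against 41.0 and 28.0% of all tested genes (median 2.86), and 11 and 5 with the other scaling. *Spic*, an ETS factor that the study follows up, was listed at 0.0226, 0.0421, 0.0454, 0.0996 and 0.0299 FPKM in MII and 21.3, 29.2, 14.7, 15.7 and 28.6 FPKM in 2cell libraries (log2 difference 7.20, adjusted p = 2.06e-10). *Klf5*, a Krüppel-like factor of the early embryo, rose from 0.0188 to 4.19 FPKM, *Klf4* from 1.07 to 14.1 FPKM, *Sox2* from 0.345 to 4.46 FPKM and *Dppa5a* from 28.5 to 343 FPKM. *Klf17*, the maternal KLF factor, fell from 38.3 to 12.2 FPKM, *Pou5f1* from 5.54 to 3.22 FPKM and *Gata3*, a factor of the later trophoblast, from 2.19 ± 0.129 to 0.247 ± 0.113 FPKM. *Nanog* and *Cdx2*, factors of later lineages, lay under the filter at both stages.

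Of 39 tested genes of RNA polymerase II and the general factors (40 listed), 11 were called higher in 2cell and 8 in MII, both under the 41.0 and 28.0% of all tested genes, and 3 and 23 when scaled to the sum of FPKM (medians -0.16 and -0.93). The 3 rises of both scalings were the polymerase subunits *Polr2h* (1.34 ± 0.294 to 18.4 ± 4.42 FPKM), *Polr2l* (4.99 to 39.5) and *Polr2e* (3.29 to 18). Among the 8 falls were *Taf8*, a TFIID subunit, from 6.97 ± 0.943 to 0.445 ± 0.0586 FPKM, *Taf7*, another, from 207 to 74.4 FPKM, and the germ cell factor *Gtf2a1l* (0.481 to 0.0207 FPKM). Of 61 core spliceosome genes, all tested, 25 were called higher in 2cell and 22 in MII (41.0 and 28.0% of all tested genes were), and 13 and 31 with the other scaling (medians 0.05 and -0.75). *Snrnp25*, of the minor spliceosome, rose from 0.314 ± 0.0955 to 38.1 ± 6.46 FPKM and *Snrpd2*, of the Sm ring, from 0.351 to 29.5 FPKM, whereas other Sm genes, *Snrpd1* (28.4 to 13.5) and *Snrpd3* (19.7 to 4.27), fell. *Prpf6* had the largest fall, from 4.36 ± 0.599 to 0.296 ± 0.0283 FPKM.

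Of 84 tested genes of cytosolic ribosomal proteins (86 listed), 78 were called higher in 2cell and 1 in MII (41.0 and 28.0% of all tested genes), and 74 and 2 when scaled to the sum of FPKM (medians 2.92 and 2.23). Their part of the summed FPKM went from 0.336 ± 0.0304 to 1.23 ± 0.228% (mean ± SD, n = 5 per stage). *Rpl10l*, the retrogene copy of *Rpl10* known from the germ line, was listed at 0.0478, 0.234, 0, 0.238 and 0.15 FPKM in MII and 52.4, 48.4, 70.8, 61.9 and 60.7 FPKM in 2cell libraries, a log2 difference of 8.16. *Rplp0*, of the ribosomal stalk, rose from 16 to 223 FPKM, *Rps19* from 0.0985 to 11.8 FPKM and *Rpl41* from 3.8 to 285 FPKM. *Rps15a*, the member that fell, went from 4.11 ± 0.497 to 2.61 ± 0.465 FPKM (log2 difference -0.61). That fall was not past the fold threshold without 2cell library A (-0.53) or B (-0.58). Ribosomal protein genes have many processed copies, with which their reads may be shared.

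Of 67 tested nucleolar genes, which assemble the ribosome (68 listed), 34 were called higher in 2cell and 18 in MII (41.0 and 28.0% of all tested genes), and 25 and 28 when scaled to the sum of FPKM (medians 0.61 and -0.16). *Nop16*, of the large subunit precursor, was at 3 fragments or fewer in every MII library and was listed at 20.1, 30.3, 29.8, 27.7 and 31.1 FPKM in 2cell libraries, at least 357-fold higher. *Nhp2*, of the H/ACA particles, rose from 0.551 to 39 FPKM and *Polr1c*, a subunit of RNA polymerases I and III, from 0.82 to 23.8 FPKM. Among the falls, *Ncl* (nucleolin) went from 72.1 to 26 FPKM, *Nop56* from 39.3 to 12.4 FPKM and *Rrp1b* from 7.09 ± 0.697 to 0.455 ± 0.0971 FPKM.

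Of 52 tested translation initiation factors (55 listed), 28 were called higher in 2cell and 14 in MII (41.0 and 28.0% of all tested genes), and 16 and 20 with the other scaling (medians 0.70 and -0.06). *Eif1a*, which the study follows up, was listed at 0.027, 0.0603, 0.112, 0.0755 and 0.0937 FPKM in MII and 4.24, 4.74, 4.68, 5.37 and 6.95 FPKM in 2cell libraries (log2 difference 4.95, adjusted p = 7.32e-10). *Eif4e*, the cap-binding protein, rose from 3.89 to 13.5 FPKM, while its oocyte form *Eif4e1b* fell from 4.75 to 2.33 FPKM. Among the falls were *Eif2ak1*, a kinase of eIF2, from 2.14 ± 0.246 to 0.324 ± 0.0194 FPKM and *Eif2b1*, a subunit of its exchange factor, from 128 to 29.3 FPKM.

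Of 34 tested proteasome subunits (39 listed), 14 were called higher in MII and 9 in 2cell, against 28.0 and 41.0% of all tested genes, and 23 and 6 when scaled to the sum of FPKM (medians -0.33 and -1.09). *Psma7*, an alpha subunit of the core, was listed at 146, 183, 139, 129.8 and 187 FPKM in MII and 4.67, 4.01, 2.97, 3.92 and 4.32 FPKM in 2cell libraries (log2 difference -5.24, adjusted p = 7.42e-11). The catalytic subunit *Psmb5* rose from 0.473 to 5.82 FPKM. *Psmb10*, of the immunoproteasome, was at 3 fragments or fewer in every MII library and rose at least 19.7-fold, to 1.66 ± 0.65 FPKM.

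Of 18 tested heat shock genes (21 listed), 6 were called higher in 2cell and 7 in MII (41.0 and 28.0% of all tested genes), and 5 and 9 when scaled to the sum of FPKM. The median was 0.22, near the 0.25 of all tested genes, and -0.55 with the other scaling. The inducible HSP70 gene *Hspa1a* was at 3 fragments or fewer in every MII library and was listed at 3.7, 3.61, 3.76, 3.79 and 2.76 FPKM in 2cell libraries, at least 72.8-fold higher. *Hspa1b* rose from 0.153 to 3.44 FPKM and the small heat shock gene *Hspb1* from 4.72 to 56.9 FPKM. Among the falls were the chaperone genes *Hsp90aa1*, from 128 ± 6.02 to 17.8 ± 1.89 FPKM, and *Hspa8*, from 17.9 to 8.95 FPKM.

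For energy metabolism, all 13 mitochondrially encoded mRNAs were called higher in 2cell, as were 41.0% of all tested genes (median 2.44, and 1.62 when scaled to the sum of FPKM). *mt-Cytb*, of complex III, was listed at 1459, 1269.9, 1681, 1346 and 1441 FPKM in MII and 8394, 9204, 5849, 6937 and 10052 FPKM in 2cell libraries, *mt-Atp6* at 985 ± 66 and 4820.3 ± 1148 FPKM, *mt-Nd1* at 594 ± 76.8 and 3635 ± 530.2 FPKM and *mt-Co2* at 709 ± 77.6 and 3485 ± 658 FPKM. These 4 had, with *Omt2b*, the largest gains in FPKM of all protein-coding genes. *mt-Nd4l*, of complex I, had the largest log2 difference of the 13 (2.99), at 13.7, 16.2, 2.85, 14.8 and 5.82 FPKM in MII and 60.2, 78.2, 66.6, 80.01 and 64.9 FPKM in 2cell libraries. Of 85 tested nuclear genes of the respiratory chain (93 listed), 47 were called higher in 2cell and 13 in MII (41.0 and 28.0% of all tested genes), and 33 and 27 with the other scaling (medians 0.93 and 0.13). *Atp5g1*, a subunit of ATP synthase, rose from 0.684 ± 0.127 to 14.6 ± 1.5 FPKM and *Cyc1*, of complex III, from 0.315 to 6.54 FPKM, while *Uqcrc2*, also of complex III, fell from 11.6 ± 0.949 to 0.618 ± 0.167 FPKM and *Sdha*, of complex II, from 3.28 to 0.411 FPKM. Of 76 tested mitochondrial ribosomal proteins (78 listed), 29 were called higher in 2cell and 27 in MII, against 41.0 and 28.0% of all tested genes, and 17 and 38 with the other scaling (medians 0.11 and -0.63). *Mrpl43* rose from 0.257 ± 0.136 to 24.3 ± 4.11 FPKM and *Mrpl47* fell from 10.2 ± 0.752 to 0.556 ± 0.147 FPKM.

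Of 26 tested genes of pyruvate, lactate and glucose metabolism (33 listed), 16 were called higher in 2cell and 5 in MII (41.0 and 28.0% of all tested genes), and 10 and 9 with the other scaling (medians 1.01 and 0.28). Of lactate dehydrogenase, *Ldhb*, the form of the oocyte, fell from 75.5 to 23.5 FPKM, and *Ldha* went from 0.0029, 0.00509, 0, 0.0103 and 0.0091 FPKM in MII to 0.985, 0.943, 1.68, 1.59 and 1.83 FPKM in 2cell libraries, at least 32.4-fold higher. Among the rises were *Tpi1*, of glycolysis, from 0.953 to 11 FPKM and *Pgam1*, also of glycolysis, from 0.621 to 2.97 FPKM. *Idh1*, of cytosolic isocitrate oxidation, fell from 0.962 ± 0.11 to 0.0939 ± 0.0684 FPKM, and *Dld*, of the pyruvate dehydrogenase complex, from 4.11 to 1.08 FPKM.

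**Figure D4:**
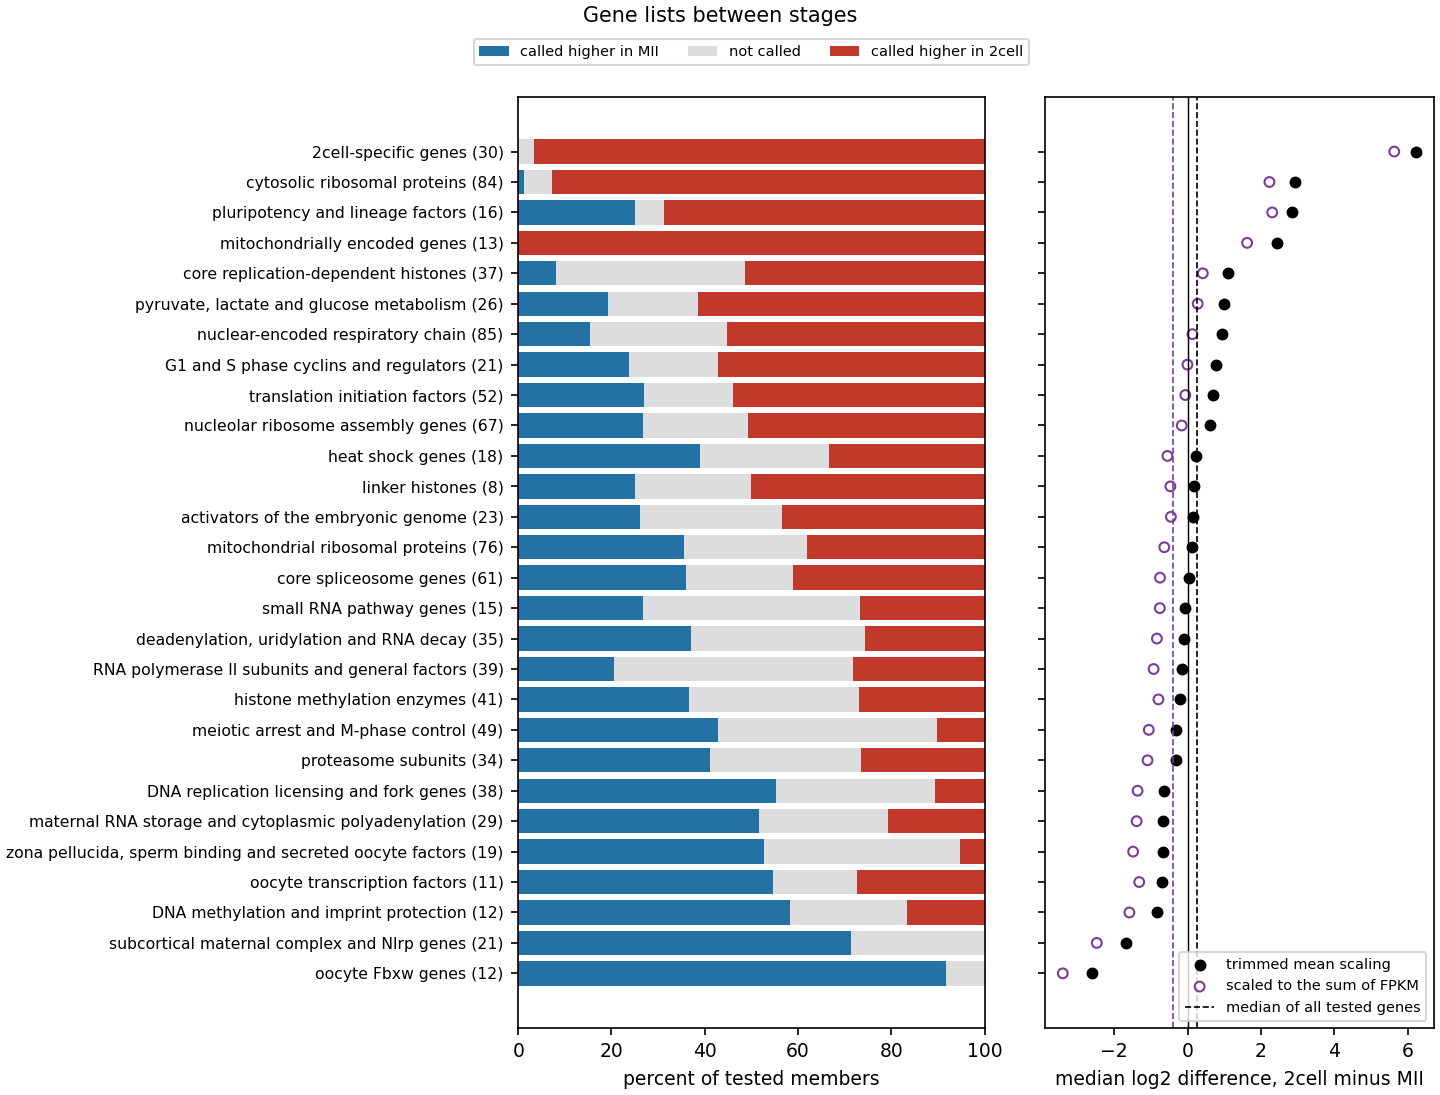
For each gene list (tested members in brackets), the percent of tested members called higher in MII, not called and called higher in 2cell (left), and the median log2 difference, 2cell minus MII, with libraries scaled by trimmed means (filled) or to the sum of FPKM (open), with dashed lines at the medians of all tested genes, 0.25 and -0.41 (right). The 2cell-specific genes stand highest with a median of 6.23 and the oocyte Fbxw genes lowest with -2.59.

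Among linker histones, *H1foo* and *Hist1h1e*, the latter from 1.68 ± 0.341 to 0.217 ± 0.146 FPKM, fell, and *Hist1h1b*, at 0 in every MII library, was listed at 4.95, 3.3, 5.46, 7.57 and 3.39 FPKM in 2cell libraries, at least 25.5-fold higher. Of 8 tested linker histones (10 listed) 4 were called higher in 2cell and 2 in MII (41.0 and 28.0% of all tested genes), and 1 and 4 when scaled to the sum of FPKM. Of 37 tested core replication-dependent histones (56 listed), 19 were called higher in 2cell and 3 in MII, against 41.0 and 28.0% of all tested genes (median 1.10), and 16 and 7 with the other scaling (median 0.42). *Hist1h2ad* was uneven among embryos, at 34.4, 16.7, 65.7, 64 and 25 FPKM, against 0.291 ± 0.235 FPKM in MII. *Hist1h2ap* rose from 16.7 to 1026 FPKM, whereas the germ cell variants *Hist1h2aa* (17.4 ± 3.61 to 1.75 ± 0.355) and *Hist1h2ba* (5.41 to 1.74) fell. Most RNAs of these genes end in a stem-loop without a poly(A) tail, which the kit needs, and many copies are near-identical, so their values are uncertain.

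Of 12 tested genes of DNA methylation and imprint protection (16 listed), 7 were called higher in MII and 2 in 2cell, against 28.0 and 41.0% of all tested genes (median -0.84), the 2 rises being lost when scaled to the sum of FPKM. *Dnmt1*, the maintenance methyltransferase, was listed at 6.69, 7.76, 7.65, 8.27 and 8.93 FPKM in MII and 0.424, 0.299, 0.255, 0.308 and 0.318 FPKM in 2cell libraries (log2 difference -4.22, adjusted p = 1.71e-10). Its partner *Uhrf1* fell from 5.44 to 0.811 FPKM, the oxidase *Tet3* from 3.86 to 0.696 FPKM and the imprint protector *Zfp57* from 56.7 to 14 FPKM. *Dnmt3l*, the cofactor of de novo methylation, was the larger of these rises, from 0.341 ± 0.057 to 0.811 ± 0.168 FPKM. Of 41 tested histone methylation enzymes (56 listed), 15 were called higher in MII and 11 in 2cell, against 28.0 and 41.0% of all tested genes, and 24 and 5 with the other scaling. Of the pair of related H3K9 methyltransferases, *Suv39h2* fell from 6.82 ± 0.512 to 1.59 ± 0.247 FPKM and *Suv39h1* rose from 0.032 FPKM (0.0213 without MII library C) to 1.13 FPKM. *Prmt6*, an arginine methyltransferase, rose from 0.0457 ± 0.0445 to 2.69 ± 0.807 FPKM, the H3K4 demethylase *Kdm5b* rose from 0.0955 to 1.38 FPKM, and *Eed* and *Ezh2*, of the Polycomb complex, fell from 8.22 to 2.72 FPKM and from 5.31 to 1.94 FPKM.

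Of 38 tested replication genes (41 listed), 21 were called higher in MII and 4 in 2cell, against 28.0 and 41.0% of all tested genes (median -0.65), and 30 and 1 with the sum of FPKM. Among the falls were *Mcm4*, of the replicative helicase, from 8.23 to 2.02 FPKM, *Mcm10*, from 2.83 ± 0.399 to 0.504 ± 0.108 FPKM and *Orc6*, of the origin recognition complex, from 67.9 to 38 FPKM. *Rpa2*, of the single-strand binding complex, rose from 0.443 ± 0.147 to 8.15 ± 1.08 FPKM, whereas *Rpa3* fell from 54.6 to 12 FPKM. Of 21 tested cyclins and regulators of G1 and S phase (29 listed), 12 were called higher in 2cell and 5 in MII, against 41.0 and 28.0% of all tested genes (median 0.77), and 9 and 9 with the other scaling (median -0.0031). *Ccne1*, the S-phase cyclin, was listed at 0.599, 0.613, 0.584, 0.683 and 0.856 FPKM in MII and 10.7, 12.3, 14, 11.1 and 12.1 FPKM in 2cell libraries (log2 difference 4.02). *Cdk2* rose from 0.13 to 2.35 FPKM and *Cdkn1a*, the p21 inhibitor, from 0.186 to 3.26 FPKM. *Cdkn1b*, the p27 inhibitor, fell from 1.12 ± 0.499 to 0.148 ± 0.0549 FPKM. *Cbfa2t3*, a corepressor that the study follows up, was low, at 0.198 ± 0.070 and 0.0314 ± 0.00548 FPKM, and called higher in MII.

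Short genes rose more often than long ones. Of protein-coding genes with up to 1000 bases of exon, 67.6% were called higher in 2cell and 12.1% in MII (n = 414). Over 8000 bases the shares were 21.2 and 37.6% (n = 1286). The median log2 difference fell from bin to bin, from 2.00 to 0.84, 0.17, -0.11 and -0.21, and with libraries scaled to the sum of FPKM from 1.31 to -0.81. The mean exon length of a library, weighted by FPKM, was 1933 to 1989 bases in MII and 1359 to 1438 bases in 2cell libraries. The parts of exon length, 3′UTR length and the short ribosomal and respiratory genes in one another's differences were not tested.

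**Figure D5:**
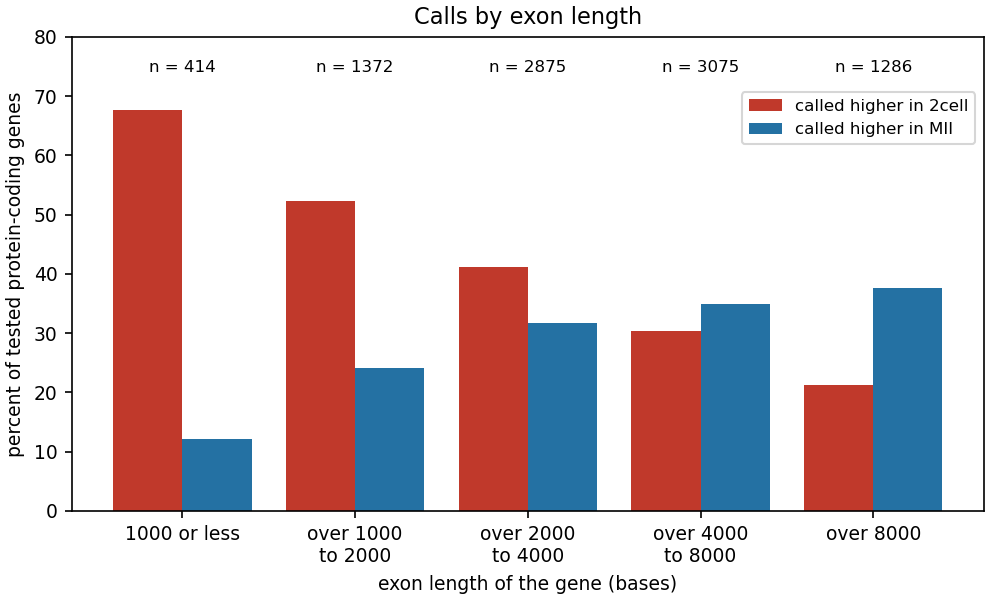
Percent of tested protein-coding genes called higher in 2cell or in MII in 5 bins of exon length (bases); n gives the genes of each bin. The share called higher in 2cell drops from 67.6% in the shortest to 21.2% in the longest bin, and the share called higher in MII rises from 12.1 to 37.6%.

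Markers of other cells moved with the stage and are given for that reason. Of the cumulus and granulosa cell markers, 19 were in the table and 3 were tested. *Tnfaip6* rose at least 3.26-fold to 0.274 ± 0.0882 FPKM, *Cyp19a1* fell from 0.303 ± 0.0718 to 0.0422 ± 0.0112 FPKM and *Star* was not called. Their sum was 0.397 to 0.625 FPKM in MII and 0.634 to 1.07 FPKM in 2cell libraries (exact permutation test, p = 0.00794), a difference of means that turned to -0.0462 (exact p = 0.563) when scaled to the sum of FPKM. The defining genes *Fshr*, *Has2* and *Foxl2* were at or under 0.0331 FPKM on average at both stages. Sperm markers summed to 0.223 to 0.505 and 2.18 to 4.29 FPKM (exact permutation test, p = 0.00794), the largest part being *Tssk6*, at 0 in every MII library and at 1.8 ± 0.406 FPKM in 2cell (at least 16.8-fold higher), with 2cell library B highest. Blood markers summed to 0.0512 to 0.434 FPKM in MII and 55.3 to 148 FPKM in 2cell libraries, again with B highest. Almost all of it was alpha globin, *Hba-a1* at 67.1, 98.6, 53.6, 47.7 and 51.2 FPKM and *Hba-a2* at 7.21, 47.7, 7.65, 7.07 and 6.45 FPKM, B standing far above the other 4, whose mean was 7.10 FPKM. Of the other 3 markers in the table, *Cd74*, of antigen-presenting cells, was at 0 in every MII library but E and at 1.04 ± 0.725 FPKM in 2cell (at least 12.2-fold). *Lyz2*, of myeloid cells, was at 0 in every MII library and at 0.355 ± 0.419 FPKM in 2cell (at least 3.25-fold), or at 0.17 FPKM (at least 1.55-fold) without 2cell library A. Both were called, while *Slc4a1*, of the red cell membrane, was at 0.00867 FPKM. The Y-linked gene *Eif2s3y*, an eIF2 subunit, rose at least 10.3-fold to 0.355 ± 0.147 FPKM. The part of other cells in the results was not tested.

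The same change was compared with that in the CPEB3-/- libraries (5 MII and 4 2cell), the difference of the stage changes being tested in limma over 15786 genes. It was called for 1219 (7.72%), 605 of them with a higher and 614 with a lower 2cell-to-MII ratio in CPEB3-/-, a split that was 497 and 739 with FPKM as deposited, 253 and 383 with a mean of at least 1 FPKM, and 509 and 741 without CPEB3-/- MII library A. Of the 5199 genes risen in CPEB3+/-, 4483 were also called higher in 2cell in CPEB3-/- and 5 were called lower. Of the 3555 fallen genes, 2994 were called in the same direction and 6 in the other. Genes chosen for their change in the CPEB3+/- libraries tend by that choice to a smaller change in CPEB3-/-, which holds for the genes given next, so their differences are descriptions. The study picked *Zscan4*, *Spic* and *Eif1a* as candidates from genes that differed between genotypes in this RNA-seq. Their adjusted p therefore adds no support of its own.

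The change in CPEB3-/- and the difference were fitted over all 19 libraries and the CPEB3+/- change over its own 10, so the values do not subtract exactly. In brackets stand the difference in log2 change, CPEB3-/- minus CPEB3+/-, and its adjusted p. Among the genes described, the rise was smaller in CPEB3-/- for *Zscan4d* (log2 change 6.35 in CPEB3+/- and 2.42 in CPEB3-/-, difference -3.87, adjusted p = 2.02e-05), *Spic* (-3.44, 4.31e-05), *Mt1* (-2.99, 2.78e-06), *Obox8* (-2.09, 0.0212) and *Hist1h2ad* (-4.63, 0.000455). Of the other *Zscan4* copies, *Zscan4c* (-2.73, 0.00319) and *Zscan4f* (-2.29, 0.00998) had a called difference. *Zscan4a* (-0.43, 0.470), *Zscan4b* (-0.69, 0.429) and *Zscan4e* (-1.28, 0.145) did not. The fall was smaller for *Mos* (1.81, 0.0168) and *Gdf9* (0.84, 0.00118). The rise was larger for *Hspa1a* (1.64, 0.000212) and *Ccne1* (0.93, 0.0199). Of the lists, named here after their values were seen, the proteasome had 14 of 34 tested subunits with a called difference, against 7.72% of all 15786 genes. In CPEB3-/- 13 of them had a lower 2cell-to-MII ratio, such as *Psmd14* (log2 change 0.88 in CPEB3+/-, a call lost when scaled to the sum of FPKM, and -0.39 in CPEB3-/-) and *Psmc4* (0.13 and -1.11). Heat shock genes had 7 of 18 (4 lower, 3 higher), activators of the embryonic genome 6 of 23 (5 lower, 1 higher) and initiation factors 9 of 52 (7 lower, 2 higher). Cytosolic ribosomal proteins had 8 of 84 (7 lower, 1 higher) and replication genes 5 of 38 (1 lower, 4 higher).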

How the data were processed

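Poly(A)-primed RNA-seq libraries of 5 cells each were read as 150-base paired ends. Per the labels and methods, the authors trimmed reads with Trim Galore 0.4.1, aligned them to GRCm38 with HISAT2 2.0.5 and made values per gene in SeqMonk. The deposited table is named for raw counts but holds FPKM, with values that are not whole, and the other normalization options were not given in the sources used here. Count tests were therefore not used. All 19 library columns were matched to labels by name.

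For the comparison of 5 MII with 5 2cell libraries, genes with at least 0.1 FPKM in 5 of 10 libraries were kept. Scaling factors came from trimmed means of log ratios (30% of ratios and 5% of levels trimmed), FPKM was taken as log2(FPKM + 0.1), which understates the change of low genes, and limma 3.58.1 (R 4.3.3, moderated with a trend) gave differences, SE and p, adjusted by Benjamini-Hochberg over all 12684 genes. FPKM printed in the text are as deposited, and differences are of scaled values. Calls needed more than 1.5-fold change at an adjusted p under 0.05. The difference between genotypes was an interaction term over all 19 libraries, on genes with 0.1 FPKM in 4 of them. Single sums were compared by a two-sided exact permutation test. Genes with 3 fragments or fewer in each library of a stage have folds given as lower bounds, against 3 fragments per library at that library's estimated depth. Figures used matplotlib 3.10.9 in Python 3.11.15 (numpy 2.4.6, pandas 2.3.3).

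Named genes are the 10 largest log2 rises and falls among called protein-coding genes without overlap and with at least 5 FPKM in the higher stage, the 5 largest gains and losses in mean FPKM, the called member with the largest rise and fall of each list, the 3 largest noncoding rises and falls, the 3 most abundant protein-coding genes not called and the genes the study follows up. Other members of the lists are named as examples chosen after their values were seen. The comparison and the lists were chosen with earlier results of these data known. Promoter motifs were not read, since RefSeq promoters matched 79.6% of the tested protein-coding genes, under the 80% set as a minimum.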

Additional observations from a re-analysis of the deposited data

Results flagged for a closer look

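In 23 of 218 groups of 5 libraries 1 library stood apart from the other 4 by Dixon's test, where chance gives about 1 in 20, or 10.9 groups. In the 2cell embryo library A stood apart for *Bcl2l10* (424 FPKM), *Nobox* (4.05), *Zscan4b* (22.3) and *Zscan4e* (28.9), each time as the highest. Library B was highest for *Tnfaip6* (0.427 FPKM), the sperm marker sum (4.29) and the blood marker sum (147.9). Library C stood apart for *Taf8* (0.547 FPKM) and *Gm28645* (190.3), D for *Cpeb3* (0.0566), and E for *Hspa1a* (2.76), *Uqcrc2* (0.912) and *Dnmt3l* (0.518). Among MII libraries, A stood apart for *Eif2s3y* (0.00535 FPKM), B for *Gm2001* (1.91), *Tnfaip6* (0.0153), *Sap18b* (1014) and *Zscan4e* (0.123), D for *Zfp352* (0.0424), and E for *Cdkn1b* (1.98), *Hba-a1* (0.428), *Zscan4f* (0.488) and the blood marker sum (0.434). Several of these values rest on few fragments.

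For 18 of 101 named genes the stage change differed between genotypes, by the interaction term in limma, against 7.72% of all 15786 genes tested. Over all risen and fallen genes of CPEB3+/- the shares were 11.9 and 6.27%. Named genes were mostly picked for their change in CPEB3+/-, and some because the study follows them up, so this count is a description. The log2 change in CPEB3-/- minus that in CPEB3+/- was negative for *Hist1h2ad* (-4.63), *Zscan4d* (-3.87), *Spic* (-3.44), *Mt1* (-2.99), *Zscan4c* (-2.73), *Zscan4f* (-2.29), *Obox8* (-2.09), *Cd9* (-1.40), *Eif1a* (-1.03) and *Tnfaip6* (-0.94), all of which rose in CPEB3+/-. It was positive for *Mos* (1.81), *Gdf9* (0.84), *Gm1070* (0.79) and *Cnot3* (0.64), which fell, and for *Prmt6* (1.79), *Hspa1a* (1.64), *Ccne1* (0.93) and *Ldha* (0.88), which rose.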

How the results depend on the processing

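The comparison was repeated with other scalings (FPKM as deposited, sum of FPKM), filters (none, a mean of at least 1 FPKM), a pseudocount of 1, other fold thresholds, a GC trend removed, all 19 libraries in the fit, a replicate block and without each library in turn. The counts moved by more than 1.5 times with a mean of at least 1 FPKM (3905 genes called, 2133 higher in 2cell and 1772 in MII, of 5211 tested), a pseudocount of 1 (5099, 3243 and 1856), and a threshold of 4-fold (3487, 2713 and 774), the first testing fewer genes and the last asking for more. The sum of FPKM raised the genes higher in MII to 5579. The share of calls higher in 2cell was 41.3% with the sum of FPKM, 64.5% with no filter, 54.6% with a mean of at least 1 FPKM, 63.6% with a pseudocount of 1 and 77.8% at 4-fold, and the number of lists of 8 or more tested genes with a median above 0 went from 16 of 30 to 8 with the sum of FPKM. Without single libraries 8634 to 8808 genes were called.

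Signs turned for genes that were not called. These were *Dppa3* at 0.12 with the GC trend removed (-0.11 to 0.019 without single libraries), *Obox5* at 0.19 (-0.21 to 0.072), *Oog3* at -0.58 and *Zfp770* at -0.65 with the sum of FPKM (*Zfp770* -0.013 to 0.22 without single libraries). The difference in cumulus marker sums was -0.0462 with the sum of FPKM (exact permutation test, p = 0.563). Of the other named genes, *Omt2b* and *Dnmt3l* lost their call with the sum of FPKM, *Tcl1* without 2cell library D (-0.56) and *Rps15a* without 2cell library A or B (-0.53 and -0.58), with a pseudocount of 1 (-0.48) and with the GC trend removed (-0.49). A pseudocount of 1 also took the call from *Dnmt3l*, *Tnfaip6*, *Cyp19a1*, *Eif2s3y* and *Cbfa2t3*, all under 1 FPKM at both stages. The genes called for the difference between genotypes were 636 with a mean of at least 1 FPKM and 932 to 1562 without single libraries, the latter without CPEB3+/- 2cell library A. The causes were not tested.

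MII and 2cell libraries share letters A to E, but same-letter deviations correlated at -0.17 to 0.06 across genes and only A correlated best with its own letter, so the letters were taken as names. With a replicate block 8732 genes were called, and 835 for the difference between genotypes. Depth is estimated and limits genes under about 0.178 FPKM, where 10 fragments or fewer were read at the median exon length.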

Other observations

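The classes of genes differed in the share that was called. Of 9060 tested protein-coding genes, 37.5% were called higher in 2cell and 31.6% in MII. Of 1975 processed pseudogenes, whose reads may come from their parent genes, the shares were 49.0 and 17.9%, of 553 lincRNAs 44.3 and 25.1% and of 319 antisense genes 47.3 and 21.00%. Of 39 sense intronic genes, which can hold unspliced RNA of their host, 82.1% were called higher in 2cell and 7.69% in MII. On the X chromosome 47.8% of 519 tested genes were called higher in 2cell and 21.00% in MII (median log2 difference 0.59), while on the autosomes 34.3 to 46.5% were called higher in 2cell, with few tested genes on Y (5 of 6) and on the mitochondrial chromosome (15 of 15, ribosomal RNA genes included). These shares are descriptions without a test, and they shift with the scaling as the whole table does.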
